A study of Mus musculus with 8 samples.

Results

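The miR-99, miR-100 and miR-125 families are microRNAs (miRNAs) made from precursors that lie beside let-7 genes, and 6 of their mature forms were taken from a mouse kidney miRNA array. The 6 were chosen by name, as the non-control probes for mmu-miR-99a-5p, mmu-miR-100-5p, mmu-miR-99b-5p, mmu-miR-125a-5p, mmu-miR-125a-3p and mmu-miR-125b-5p, out of 1881 mouse miRNAs on the array. The species prefix is left out below. The injured group was 4 kidneys with ischemia-reperfusion injury (IRI replicates 1, 2, 3 and 18), in which the right kidney had been removed and the left clamped for 25 or 45 min and then collected 12 or 24 h later. The control group was 4 sham kidneys (sham replicates 1, 2, 3 and 6) of mice with an opened abdomen and neither clamp nor nephrectomy. All mice were C57BL/6 males aged 9 weeks, with no allele or agent named beyond the anaesthetic isoflurane that both groups share. Clamp time and harvest time were not labelled per sample, and the sources used here do not say that each sample was a separate mouse, so the p-values given here speak of sample-to-sample spread, which may be technical.

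A miRNA precursor is a hairpin from which a guide strand is loaded into an Argonaute protein, where bases 2 to 8 of the guide, the seed, pair with target messenger RNAs. The vertebrate miR-125 family is homologous to lin-4, the first miRNA found in Caenorhabditis elegans, and together with miR-100 and let-7 it forms one of the oldest miRNA clusters of animals. Studies in human cells place MTOR and IGF1R among the targets of the miR-99 and miR-100 guides, and miR-125 guides repress Lin28, the RNA-binding protein that blocks let-7 maturation, in mouse cells.

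The mature sequences show which guides could be told apart by an array and which share a seed. They are RefSeq entries (assembly GRCm38.p6), written 5′ to 3′ with the seed in capitals, and all 6 matched by name.
miR-99a-5p: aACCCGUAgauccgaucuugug
miR-100-5p: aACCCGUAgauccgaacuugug
miR-99b-5p: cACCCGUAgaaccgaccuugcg
miR-125a-5p: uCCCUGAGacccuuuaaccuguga
miR-125b-5p: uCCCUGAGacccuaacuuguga
miR-125a-3p: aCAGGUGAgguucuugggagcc
The seed ACCCGUA belonged to miR-99a-5p, miR-100-5p and miR-99b-5p and to no other of the 1679 mouse mature names in that table. Counted from 1 at the 5′ end, miR-100-5p differed from miR-99a-5p at 1 of 22 bases, as U16A with the base of miR-99a-5p first. miR-99b-5p differed from miR-99a-5p at 4 bases (A1C, U11A, U16C and U21C), all outside the seed. The seed CCCUGAG was held by 5 names, of which miR-351-5p, miR-6394 and miR-6367 were detected on 0 arrays. The seed of miR-125a-3p was held by that name alone.

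In the RefSeq annotation the guides come from 3 clusters, each with 1 let-7 gene. Mir99a lies with Mirlet7c-1 and Mir125b-2 on chromosome 16. Mir100 lies with Mirlet7a-2 and Mir125b-1 on chromosome 9, inside the long noncoding RNA gene Mir100hg. Mir99b lies with Mirlet7e and Mir125a on chromosome 17, inside Spaca6, a gene for a sperm acrosome membrane protein. The scanner files themselves use build mm9 and place the longest probe of miR-99a-5p at chr16:77599189-77599206, that of miR-100-5p at chr9:41339524-41339541 and that of miR-99b-5p at chr17:17967165-17967179. They give no position for the miR-125 probes. miR-125b-5p can be made from either Mir125b gene, and let-7a-5p and let-7c-5p are also made from further genes, so an array signal for these names sums several sources.

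Each array carried 180 spots for the 6 miRNAs, 30 per miRNA, of which 3 to 9 were marked as outliers and left out. Values below are scaled signals: processed Cy3 fluorescence, averaged over spots, summed over the probes of a miRNA and divided by the 75th percentile of the array, in arbitrary units. Signals of different miRNAs come from different probes, so their levels were not ranked against each other, and only changes were compared. All 6 miRNAs were detected on all 8 arrays, and all 6 were among the 379 tested. Detected miRNAs numbered 393 to 447 on IRI arrays and 327 to 379 on sham arrays, and the unscaled 75th percentile was 445 to 562 on IRI arrays and 356 to 456 on sham arrays. All 8 arrays lay on 1 slide, with IRI in slide row 2 and sham in slide row 1, so slide row and group cannot be told apart.

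Under the scaling used here, miR-99a-5p, miR-100-5p and miR-125a-5p were called lower in IRI kidneys among the 6 miRNAs, and none was called higher. With no scaling and with spike-in scaling, 0 of the 6 were called lower and 1, miR-125a-3p, was called higher. Across all tested miRNAs, limma called 36.7% lower and 12.1% higher in IRI (48.8% in either direction, adjusted p under 0.05), so 3 of 6 lower is not set apart from that background. On 4 of the 6, every IRI array lay below every sham array, a pattern seen in 35.9% of tested miRNAs, while all IRI arrays lay above all sham arrays in 10.6%. The median log2 change was -0.15 over the 6 miRNAs and -0.11 over the 379 tested. Over the 317 miRNAs detected on all 8 arrays, as the 6 were, it was -0.19, so the 6 did not fall more than that set. When only those 317 were tested, 139 were called lower and 31 higher, and 2 and 1 among the 6. In whole kidney, fewer cells of a type and less RNA per cell cannot be told apart.

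miR-99a-5p, the guide of the Mir99a cluster, had the most negative log2 change of the 6. Its scaled signal was 543, 482, 448 and 448 on IRI arrays 1, 2, 3 and 18, against 676, 629, 678 and 679 on sham arrays 1, 2, 3 and 6. Every IRI array lay below every sham array, and sham 2 lay apart from the other sham arrays, which were nearly equal. It averaged 480 ± 44.7 in IRI kidneys and 665 ± 24.4 in sham kidneys (SD, n = 4 each), a log2 change of -0.47 ± 0.08 (SE, limma adjusted p = 0.00197), or 1.39-fold lower. On IRI 3 and IRI 18 miR-99a-5p was itself the miRNA at the 75th percentile used for scaling, so its scaled values there are equal by construction. The unscaled signals on those arrays were 462 and 445. The fall was -0.32, -0.38, -0.60 and -0.60 on the log2 scale within slide columns 1 to 4, each of which held 1 array of either group.

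miR-100-5p, which shares the seed of miR-99a-5p, fell as well. It had 156, 136, 135 and 112 units on IRI arrays, against 167, 173, 178 and 184 units on sham arrays. The groups did not overlap, but IRI 1 came close to sham 1, and IRI 18 was the lowest of all. The means were 135 ± 17.7 in IRI kidneys and 176 ± 7.15 in sham kidneys (SD, n = 4 each), a log2 change of -0.39 ± 0.10 (SE, limma adjusted p = 0.0132). The call was lost in 5 of 24 other settings, among them no scaling (-0.09, limma adjusted p = 0.748), spike-in scaling (-0.07, limma adjusted p = 0.809), averaged log2 values of its probes (-0.32, limma adjusted p = 0.0508) and a test of all 1881 miRNAs (limma adjusted p = 0.101).

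miR-99b-5p, the third guide with this seed, moved less and did not pass the test. It had 177, 189, 185 and 184 units on IRI arrays, against 209, 198, 213 and 192 units on sham arrays. All IRI arrays lay below all sham arrays, with a narrow gap between IRI 2 and sham 6. The log2 change was -0.14 ± 0.06 (SE, n = 4 each, limma adjusted p = 0.0749), with a 95% interval of -0.27 to -0.01. With normexp background correction the log2 change was also -0.14 and passed (limma adjusted p = 0.0331), while that of miR-125a-5p then missed (limma adjusted p = 0.0559).

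miR-125a-5p, the 5p guide of the precursor beside let-7e, had 448, 473, 474 and 456 units on IRI arrays, against 518, 491, 546 and 512 units on sham arrays. The groups did not overlap, and the lowest sham array, sham 2, stood close above the highest IRI arrays. Its log2 change of -0.16 ± 0.06 just passed the test (SE, n = 4 each, limma adjusted p = 0.0479). That call was lost or the direction turned in 21 of 24 other settings, with log2 changes of -0.27 to 0.16. On IRI 1, miR-125a-5p was itself the miRNA at the 75th percentile.

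miR-125b-5p, the guide that 2 of the 3 clusters encode, had 1980.4, 1856, 1809 and 1726 units on IRI arrays, against 1959, 1945, 2017 and 2101 units on sham arrays. The groups overlapped, since IRI 1 lay above sham 1 and sham 2. The log2 change was -0.12 ± 0.06 (SE, n = 4 each, limma adjusted p = 0.140), with a 95% interval of -0.27 to 0.02. Without IRI 1 the fall passed the test (limma adjusted p = 0.0485), the only 1 of 24 other settings in which it did. In 3 of the 24 the direction turned, among them quantile normalization (log2 change 0.17, limma adjusted p = 0.104).

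miR-125a-3p, the opposite arm of the miR-125a-5p precursor, was the only one of the 6 with a higher mean in IRI kidneys. It had 262, 143, 126 and 176 units on IRI arrays, against 88.1, 99.6, 107 and 142 units on sham arrays. IRI 1 stood far above the rest, and sham 6 lay above IRI 3 and close to IRI 2, so the groups overlapped. The means were 177 ± 60.5 in IRI kidneys and 109 ± 23.4 in sham kidneys (SD, n = 4 each), a log2 change of 0.66 ± 0.25 that missed the threshold (SE, limma adjusted p = 0.0562). Without IRI 1 the log2 change was 0.45 (limma adjusted p = 0.0904), and with normexp background correction it was 0.13 (limma adjusted p = 0.389). The normexp setting added an offset of 50 to every spot, which by itself draws the log2 change of a dim miRNA toward 0. The rise passed the test in 11 of 24 other settings, among them no scaling, with a log2 change of 0.96 (limma adjusted p = 0.0339).

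**Figure D1:**
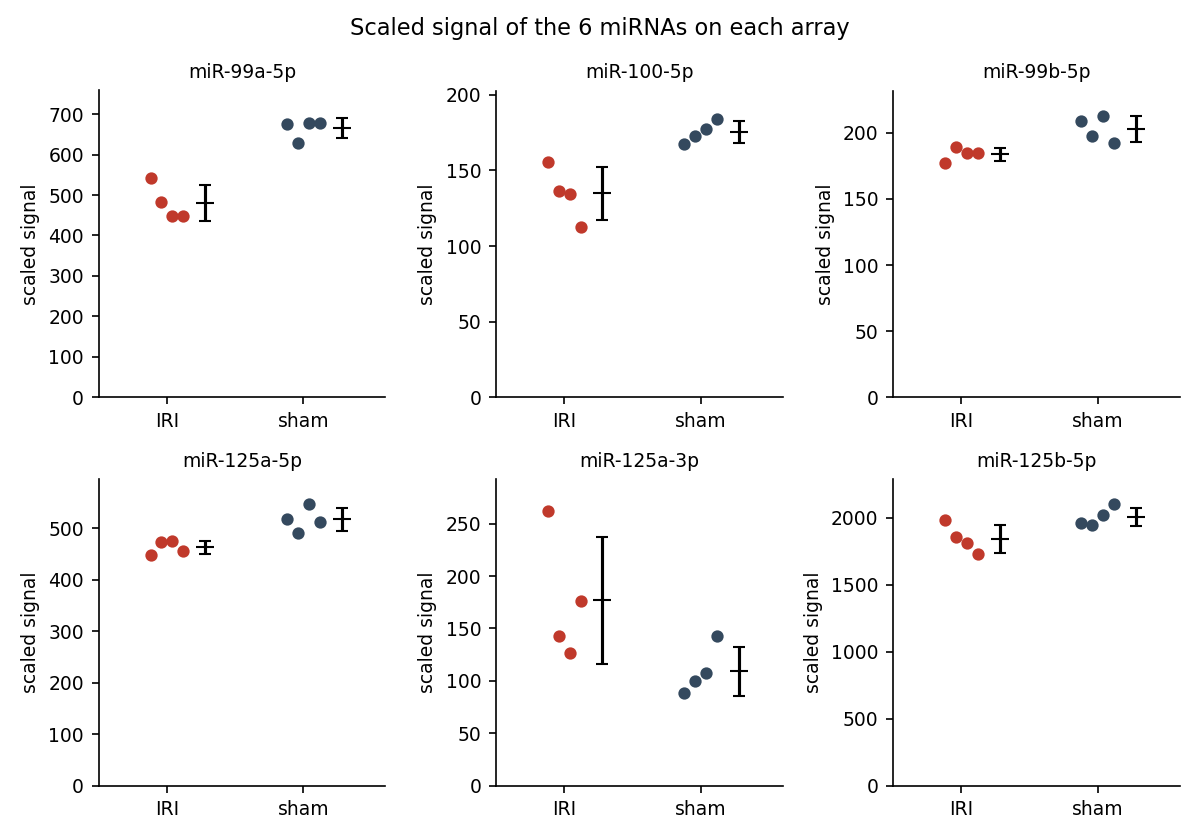
Scaled signal (arbitrary units, linear axis) of the 6 miRNAs on the 4 IRI arrays (left, red) and the 4 sham arrays (right, dark blue), 1 point per array, with mean and SD beside each group. miR-99a-5p and miR-100-5p show IRI points below all sham points, miR-125b-5p overlaps, and miR-125a-3p is higher on IRI 1 (262) than on any other array.

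Both arms of the miR-125a precursor are shown on its hairpin (RefSeq, 68 bases), with the mature arms in capitals: bases 6 to 29 are miR-125a-5p and bases 44 to 65 are miR-125a-3p.
mir-125a hairpin: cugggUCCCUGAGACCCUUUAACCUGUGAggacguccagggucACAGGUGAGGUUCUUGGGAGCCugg
The log2 difference of the 5p arm minus the 3p arm within an array does not depend on a single scaling factor for that array. It was 0.77, 1.73, 1.91 and 1.37 on IRI arrays, against 2.56, 2.30 and 2.35 on sham arrays 1 to 3 and 1.85 on sham 6. IRI 3 and sham 6 overlapped. The means were 1.44 ± 0.50 in IRI kidneys and 2.26 ± 0.30 in sham kidneys (SD, n = 4 each), a change of -0.82 on the log2 scale (exact permutation test over 70 splits, two-sided, p = 0.0571, adjusted p = 0.0952 over 15 pairs). The smallest p that 4 arrays against 4 can give is 0.0286. The change was -0.25 with normexp (exact permutation, adjusted p = 0.195) and -0.66 with quantile normalization, where it passed (exact permutation, adjusted p = 0.0476). The normexp offset of 50 per spot by itself draws the change of a dim arm toward 0. The opposite arms of the other precursors gave no such comparison: miR-99b-3p was detected on 2 IRI arrays and 2 sham arrays, and miR-99a-3p, miR-100-3p, miR-125b-1-3p and miR-125b-2-3p on 0 arrays.

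The array reads each miRNA with several probes that are complementary to its 3′ part. The longest probes of miR-99a-5p and miR-100-5p, printed 5′ to 3′ because these guides are nearly identical, differ at the base in capitals.
miR-99a-5p probe: cacaagAtcggatctacgg
miR-100-5p probe: cacaagTtcggatctacgg
Signal of either guide on the probe of the other was not measured here and whether it adds to either fall was not tested. The miR-99a-5p probes of 19 and 18 bases changed by -0.46 and -0.51 on the log2 scale. The 19-base probe of miR-100-5p changed by -0.42, while its dim 18-base probe averaged 23.1 units on IRI arrays and 26.6 units on sham arrays, a log2 change of -0.22 with overlapping groups. In the other 5p guides the log2 changes of the probes lay close together, at -0.15 and -0.14 for miR-99b-5p, -0.13 and -0.17 for miR-125a-5p, and -0.18 and -0.11 for miR-125b-5p.

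The higher mean of miR-125a-3p was seen by its 3 longer probes. All 4 of its probes end at the same base of the miRNA and differ only in how far they reach toward its 5′ end.
miR-125a-3p, bases 10 to 22: ggctcccaagaac
miR-125a-3p, bases 9 to 22: ggctcccaagaacc
miR-125a-3p, bases 8 to 22: ggctcccaagaacct
miR-125a-3p, bases 7 to 22: ggctcccaagaacctc
By rising length, the log2 changes of the probes of 14, 15 and 16 bases were 0.69, 0.70 and 0.60. Of these, only the 15-base probe had every IRI array above every sham array. The 13-base probe was near the detection limit, with 89.3% of spots well above background on IRI arrays and 3.13% on sham arrays, averaged over arrays, so no fold is given for it. The signal of miR-125a-3p was also the least even between spots, with a median coefficient of variation of 11.4%. The 5p guides had 8.77% (miR-100-5p), 6.78% (miR-99b-5p), 4.96% (miR-125a-5p), 4.47% (miR-99a-5p) and 4.24% (miR-125b-5p).

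**Figure D2:**
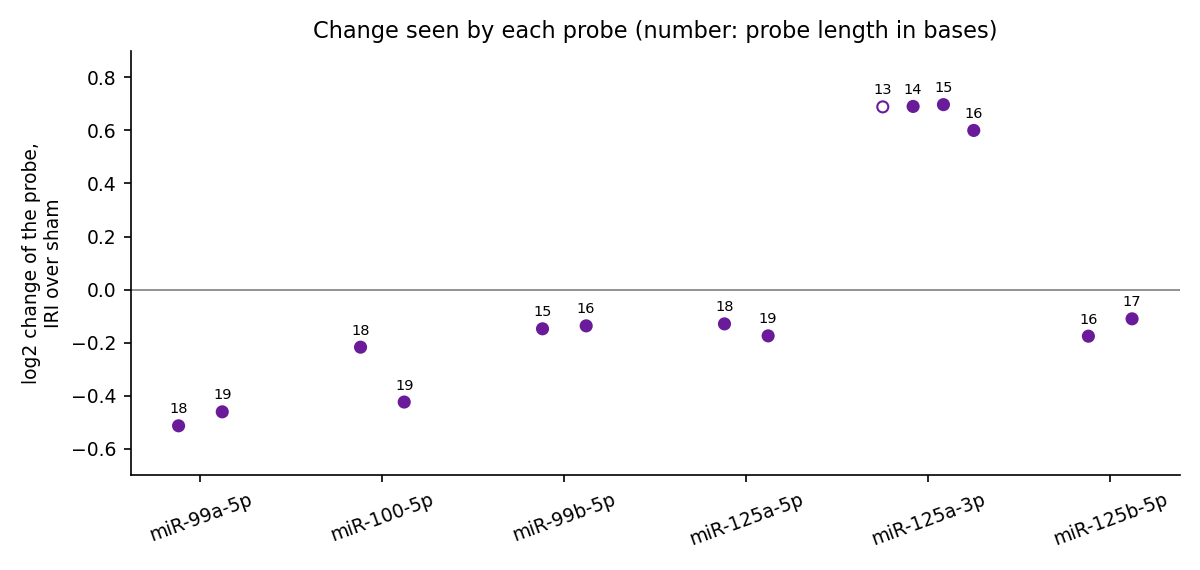
Log2 change of each probe (IRI over sham, 4 arrays each), with the probe's length in bases above its point. The 10 probes of the 5p guides lie below 0 and the 3 longer probes of miR-125a-3p lie between 0.60 and 0.70. The open point is the 13-base probe, whose sham signal was mostly not well above background.

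The next question was whether the miRNAs changed by unequal amounts, asked within arrays so that a single scaling factor per array plays no part. Of the 15 pairs of the 6 miRNAs, 7 had IRI and sham arrays that did not overlap and p = 0.0286 (exact permutation test, two-sided), the smallest p the design allows. Over all pairs of tested miRNAs, 38.7% did not overlap in this way, so 7 of 15 is not set apart. After adjustment over the 15 pairs that p became 0.0612, so 0 pairs passed 0.05. With quantile normalization 9 of 15 passed, each at adjusted p = 0.0476 (exact permutation). No p can fall below 0.0286 here, so whether any pair passes depends on how many reach it together. The counts of 0 and 9 thus stand for 7 and 9 pairs at that p.

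miR-99a-5p minus miR-125b-5p, 2 guides with genes in the same cluster, was -1.87, -1.95, -2.01 and -1.94 on IRI arrays, against -1.53, -1.63, -1.57 and -1.63 on sham arrays. The groups were well apart, with means of -1.94 ± 0.06 in IRI kidneys and -1.59 ± 0.05 in sham kidneys (SD, n = 4 each). That is a change of -0.35 on the log2 scale. miR-100-5p minus miR-125b-5p, the corresponding pair of the Mir100 cluster, changed by -0.27, with -3.78 ± 0.11 in IRI kidneys and -3.51 ± 0.02 in sham kidneys. The same miR-125b-5p signal, summed over both Mir125b genes, entered both differences, so they are not separate observations and neither speaks for 1 cluster alone. That signal was higher on IRI arrays relative to miR-99a-5p and to miR-100-5p (exact permutation, adjusted p = 0.0612 for each pair). miR-99a-5p also fell relative to miR-99b-5p, which shares its seed, by 0.33 on the log2 scale, with no overlap between groups.

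In the other 8 pairs the groups overlapped, and several of them had changes near 0. miR-99a-5p minus miR-100-5p was 1.84 ± 0.11 in IRI kidneys and 1.92 ± 0.07 in sham kidneys (SD, n = 4 each), a change of -0.08 (exact permutation p = 0.257). miR-99b-5p minus miR-125a-5p, both from the Mir99b cluster, was -1.33 ± 0.02 in IRI kidneys and -1.35 ± 0.05 in sham kidneys, a change of 0.02 (exact permutation p = 0.571). miR-99b-5p minus miR-125b-5p was -3.32 ± 0.11 in IRI kidneys and -3.30 ± 0.10 in sham kidneys, a change of -0.02 (exact permutation p = 0.743). With quantile normalization that change was -0.42 (exact permutation, adjusted p = 0.0476). miR-125a-5p minus miR-125b-5p, which share a seed, was -1.99 ± 0.10 in IRI kidneys and -1.96 ± 0.07 in sham kidneys, a change of -0.04 (exact permutation p = 0.629), but -0.27 with quantile normalization (exact permutation, adjusted p = 0.0476). Larger changes stood among the rest, with -0.80 for miR-99b-5p minus miR-125a-3p (exact permutation p = 0.0571), -0.25 for miR-100-5p minus miR-99b-5p (exact permutation p = 0.114) and -0.23 for miR-100-5p minus miR-125a-5p (exact permutation p = 0.0857). With 4 arrays a group, these p-values do not show equal change.

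Under the scaling used here, the let-7 guides of the 3 clusters were all called lower in IRI kidneys. With no scaling and with spike-in scaling none of the 3 was called, and the log2 change of let-7e-5p turned to 0.0152 and 0.0319. let-7a-5p averaged 8135 ± 536 units in IRI kidneys and 11194 ± 365 units in sham kidneys (log2 change -0.46 ± 0.06, limma adjusted p = 0.00121), and let-7c-5p averaged 7226 ± 402 units in IRI kidneys and 9699 ± 311 units in sham kidneys (log2 change -0.43 ± 0.06, limma adjusted p = 0.00122). let-7e-5p averaged 911 ± 30.2 units in IRI kidneys and 1113 ± 35.4 units in sham kidneys, a smaller log2 change of -0.29 ± 0.05 (SE, n = 4 each, limma adjusted p = 0.00378).

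**Figure D3:**
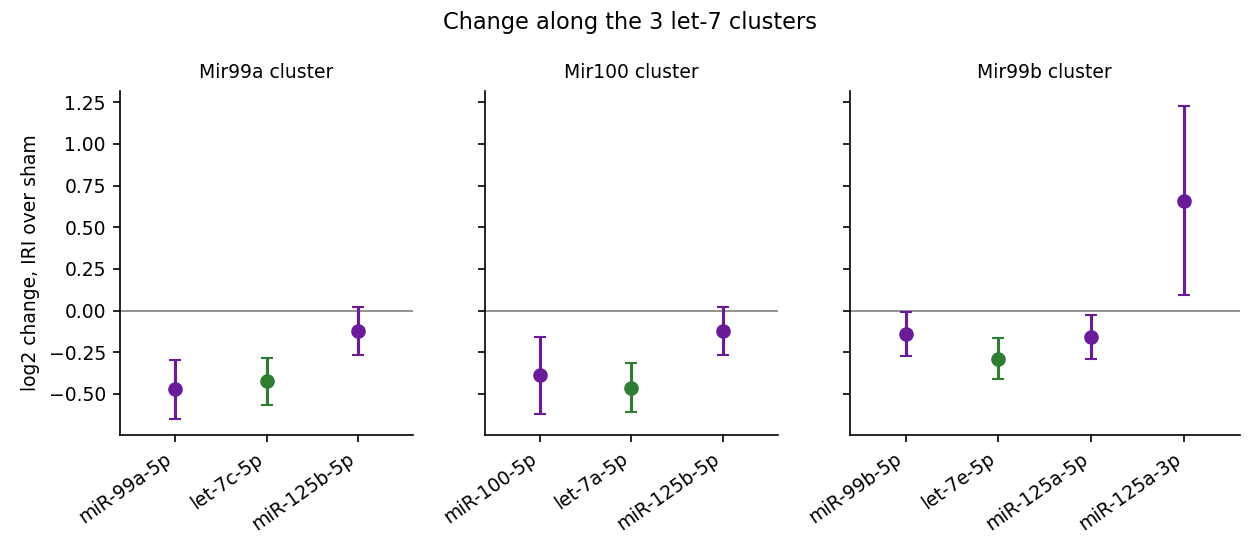
Log2 change (IRI over sham, limma fit, 4 arrays each) with 95% interval for the guides of the Mir99a, Mir100 and Mir99b clusters, the let-7 guide in green and the others in purple; miR-125b-5p is drawn in both clusters that encode it. In the first 2 clusters the guide at the left and the let-7 guide lie near each other (-0.47 and -0.43, -0.39 and -0.46) and miR-125b-5p lies nearer 0 (-0.12).

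Set against the let-7 guide of its cluster within each array, 5 of 7 differences changed between the groups (exact permutation p = 0.0286, adjusted p = 0.04 over the 7), and in all 5 the let-7 guide was the one that was relatively lower in IRI kidneys. Many other miRNAs did the same: IRI arrays lay above all sham arrays for 42.1% of tested miRNAs set against let-7a-5p, 39.7% against let-7c-5p and 26.2% against let-7e-5p. miR-125b-5p minus let-7a-5p lay between -2.17 and -2.11 on IRI arrays and between -2.53 and -2.39 on sham arrays, a change of 0.34. miR-125b-5p minus let-7c-5p lay between -2.03 and -1.93 on IRI arrays and between -2.32 and -2.20 on sham arrays, a change of 0.30. In both, the gap between the groups was wider than the range within the IRI arrays.

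In the Mir99b cluster the changes against let-7e-5p were smaller. miR-99b-5p minus let-7e-5p was -2.31 ± 0.06 in IRI kidneys and -2.46 ± 0.04 in sham kidneys, a change of 0.15, and miR-125a-5p minus let-7e-5p was -0.98 ± 0.05 in IRI kidneys and -1.11 ± 0.02 in sham kidneys, a change of 0.13 (SD, n = 4 each). miR-125a-3p minus let-7e-5p was -2.42 ± 0.46 in IRI kidneys and -3.37 ± 0.31 in sham kidneys, a change of 0.95, which was 0.35 with normexp (exact permutation, adjusted p = 0.15). The last of these had the widest spread, and IRI 3 came nearest to sham 6. Its normexp value is drawn toward 0 in part by the offset of 50 added to every spot.

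The remaining 2 differences were not separated. miR-99a-5p minus let-7c-5p was -3.91 ± 0.06 in IRI kidneys and -3.87 ± 0.03 in sham kidneys, a change of -0.05 (exact permutation p = 0.257, adjusted p = 0.3). miR-100-5p minus let-7a-5p was between -6.10 and -5.84 on IRI arrays and between -6.08 and -5.90 on sham arrays, a change of 0.07 (exact permutation p = 0.343). With background corrected by normexp, 0 of the 7 differences passed. miR-125b-5p minus let-7c-5p was then 0.29 and miR-125b-5p minus let-7a-5p 0.33 (exact permutation, adjusted p = 0.1 each). With quantile normalization 0 of 7 passed as well, since both miR-125b-5p differences kept their sign at an adjusted p equal to the threshold (0.32 and 0.41, exact permutation, adjusted p = 0.05) and the differences from let-7e-5p had adjusted p = 0.08 to 0.943 by the exact permutation test. miR-99a-5p minus let-7c-5p was then -0.26 and miR-100-5p minus let-7a-5p -0.30 (exact permutation, adjusted p = 0.05 each).

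**Figure D4:**
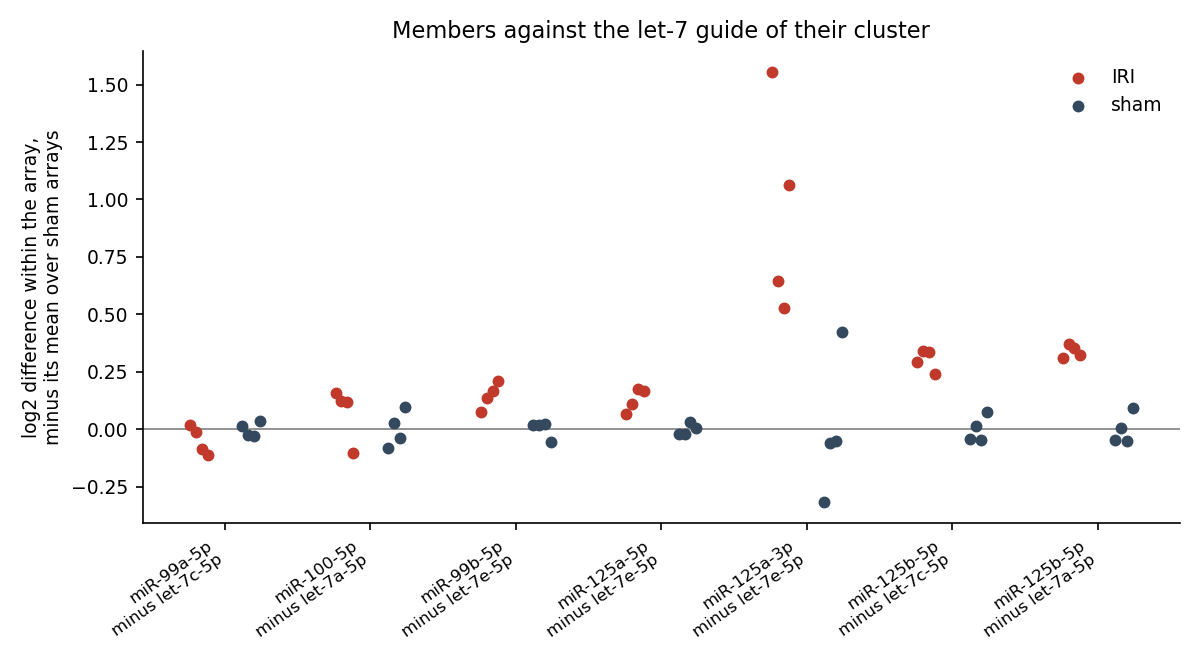
Log2 difference of each miRNA minus the let-7 guide of its cluster within each array, less the mean of the sham arrays, for IRI arrays (red, left) and sham arrays (dark blue, right). IRI points lie above all sham points for miR-99b-5p, miR-125a-5p, miR-125a-3p and both miR-125b-5p differences, and overlap them for miR-99a-5p and miR-100-5p.

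Whether a single guide is read as lower depends on how arrays are scaled. The within-array differences avoid a single factor per array, but not quantile normalization, which changes each signal by its rank. With no scaling the median log2 change of all tested miRNAs was 0.17, and with scaling to the spike-in RNAs added before labelling it was 0.18, against -0.11 in the values above. Relative to those medians, miR-99a-5p stayed low, at -0.17 with no scaling and -0.15 with spike-ins, but neither change passed the test. miR-100-5p likewise kept its sign without passing. miR-99b-5p, miR-125a-5p and miR-125b-5p turned to higher in IRI kidneys under both, at 0.16, 0.14 and 0.18 with no scaling, none of them called. miR-125a-3p was higher in IRI kidneys in all 24 settings tried, with log2 changes of 0.13 to 0.98. Several of these settings, such as the detection filter, the floor and the variance model, left its log2 change at 0.66 and so are no check of its direction.

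**Figure D5:**
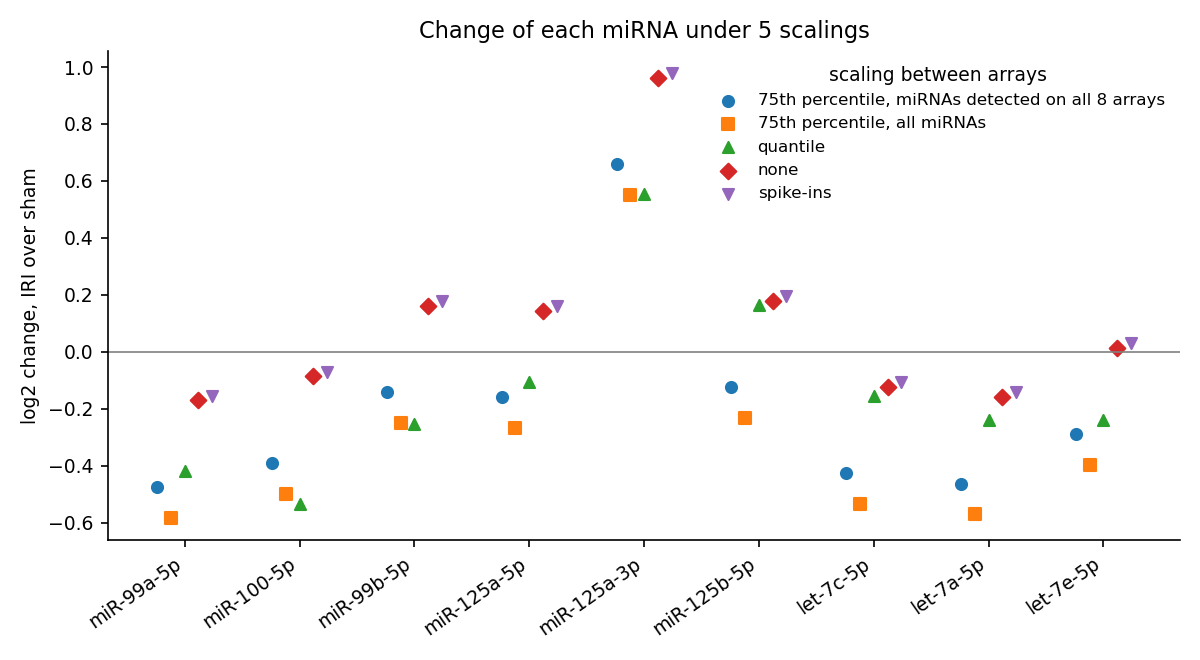
Log2 change (IRI over sham) of the 6 miRNAs and of the 3 let-7 guides under 5 ways of scaling arrays, 1 marker shape per scaling. No scaling and spike-in scaling shift the values up by a similar amount, so that miR-99b-5p, miR-125a-5p and miR-125b-5p lie above 0 there, while miR-99a-5p and miR-100-5p lie below 0 under all 5.

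Likeness of profiles was measured as the root mean square difference between centred log2 profiles over the 8 arrays, among 311 other miRNAs detected on all arrays. Between the 6 miRNAs, miR-99b-5p and miR-125a-5p were closest, at 0.034, and miR-99a-5p and miR-100-5p were 0.090 apart. Nearest to miR-99a-5p were miR-425-5p (0.031) and miR-26a-5p (0.034), against a median distance of 0.210. Nearest to miR-100-5p were miR-195a-5p (0.035) and miR-497a-5p (0.052), which come from 1 gene cluster of their own. The nearest profiles of miR-99b-5p were miR-222-3p (0.045) and miR-27a-3p (0.065), and those of miR-125a-5p were let-7i-5p (0.053) and miR-222-3p (0.056). For miR-125b-5p they were miR-350-3p (0.045) and let-7i-5p (0.048). miR-125a-3p stood farther from every profile, with miR-8101 (0.114) and miR-6392-3p (0.164) nearest. All profiles share the 8 arrays and their scaling.

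The distant sequence relatives miR-10a-5p and miR-10b-5p, whose genes lie in the Hox clusters, were also called lower under the scaling used here. Their log2 changes were -0.29 and -0.32 (limma adjusted p = 0.00831 and 0.00704), and neither was called with no scaling or spike-in scaling.

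Markers of several cell types differed between the groups in the scaled values. With no scaling 1 and with spike-in scaling 2 of the 379 tested miRNAs were called lower, so the falls below are calls under the scaling used here. The 6 kidney epithelial miRNAs of the marker list were detected on all 8 arrays, and all 6 (miR-10a-5p among them) fell, with a summed signal of 14491 to 16483 units on IRI arrays and 19843 to 22571 units on sham arrays. All 3 red blood cell miRNAs rose, summing to 2940 to 4087 units on IRI arrays and 43.0 to 902 units on sham arrays. Only 1 of them was detected on all 8 arrays, and miR-486a-5p averaged 5.14 units in sham kidneys, below the floor of 17.3. Among 5 leukocyte miRNAs 1 rose, and their sums were 774 to 1098 units on IRI arrays and 581 to 724 units on sham arrays. Both endothelial miRNAs fell, with sums of 3836 to 4321 units on IRI arrays and 4623 to 5333 units on sham arrays. Of 4 mural cell and fibroblast miRNAs 2 fell, with sums of 1039 to 1605 units on IRI arrays and 1705 to 1877 units on sham arrays. The liver miRNA miR-122-5p was not detected on all arrays of either group, with 0 to 33.5 units on IRI arrays and 0 to 0.312 units on sham arrays. The 3 muscle miRNAs summed to 19.9 to 31.5 units on IRI arrays and 29.8 to 43.1 units on sham arrays. Of these, miR-1a-3p was detected on all 8 arrays and called lower, with a log2 change of -0.54 (limma adjusted p = 0.00477). Its means of 17.2 units in IRI kidneys and 26.6 units in sham kidneys lay near the floor of 17.3. The neuron marker miR-9-5p was detected on all 8 arrays, with means of 36.8 units in IRI kidneys and 33.5 units in sham kidneys, and was not called (limma adjusted p = 0.482). The 3 pancreas markers and miR-124-3p, miR-133a-3p and miR-206-3p were detected on 0 arrays. The part of these shifts in the changes of the miR-99, miR-100 and miR-125 guides was not tested.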

How the data were processed

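Total RNA from 30 mg of kidney (100 ng per array) was labelled with Cy3 and hybridised to single-colour Agilent mouse miRNA arrays, per the labels' protocols. Per the file headers, the deposited scanner files hold spot intensity that Agilent Feature Extraction 12.0.3.1 had background-subtracted but not normalized between arrays, on a grid of build mm9. The authors' deposited value table holds a ratio per miRNA. Its log2 values, centred per entry, followed the scanner's total gene signal on each array over 317 miRNAs, so larger ratios stand for brighter miRNAs. How its arrays were scaled and which centre was used are unknown. The median of a column was 0.658, 0.646, 1.16 and 0.749 for IRI arrays 1, 2, 3 and 18, and 0.859, 1.23, 1.29 and 1.30 for sham arrays 1, 2, 3 and 6. It served only as an alternative.

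Control spots and the outlier spots (1422 to 1560 of 56430 per array) were left out, and 0 were saturated. Each probe took the mean of its spots and each miRNA the sum of its probes. Arrays were divided by their 75th percentile, taken over the 317 miRNAs that every array detected, and multiplied by the geometric mean of the 8 percentiles. Values were raised to a floor of 17.3 (5th percentile of detected signals) and taken to log2. limma 3.58.1 in R 4.3.3 was fitted, with no covariate, to the 379 miRNAs that every array of either IRI or sham detected (two-sided, Benjamini-Hochberg, threshold 0.05). Differences between miRNAs within an array were compared by exact permutation over 70 splits of the 8 arrays. The fit was tested on simulated data. No arrays held identical values.

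The miRNAs, marker lists and tests were chosen with earlier results of these data known. Named miRNAs were the 6, the let-7 guides of their clusters, opposite arms, sequence relatives and, per miRNA, the 2 nearest profiles. Alternatives covered scaling, background, how probes were combined, the detection filter, the floor, the variance model, a block by slide column or replicate number, the deposited table and leaving out each array. The normexp background alternative added an offset of 50 to every spot before probes were summed. Groups and replicate numbers came from the sample labels. With 4 arrays a group, their number limits the precision. A genome of build mm9 was not used here.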

Additional observations from a re-analysis of the deposited data

Results flagged for a closer look

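Of 56 groups of 4 arrays examined (each miRNA or difference in each group), 4 had 1 array far from the other 3 by Dixon's gap test, which by chance happens in about 1 in 20 groups. miR-99a-5p had a log2 scaled signal of 9.30 on sham 2, below the other sham arrays. The log2 difference of miR-99a-5p minus miR-99b-5p was 1.82 on sham 6, above the other sham arrays. The log2 difference of miR-100-5p minus let-7a-5p was -6.10 on IRI 18, below the other IRI arrays. The log2 difference of miR-99b-5p minus let-7e-5p was -2.51 on sham 6, below the other sham arrays. Differences share arrays and miRNAs, so these groups are not independent of each other.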

How the results depend on the processing

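The cause of the changes below was not tested. Scaling decided most of the lower calls. The counts of all tested miRNAs called lower and higher in IRI were 139 and 46. Lower calls became 1 with no scaling, 2 with spike-in scaling, 90 with no filter and 50 with the replicate block. Higher calls were 53 with no scaling, 73 with spike-in scaling, 18 with normexp, 21 with no filter and 17 with the replicate block. Of the 6 miRNAs, 3 were called lower. That count was 0 with no scaling, with spike-in scaling and with the replicate block, 1 with the mean of log2 probe values and with no filter. In the replicate block IRI 18 and sham 6 have no partner, so the contrast rests on replicates 1, 2 and 3 alone. With the slide column block, which uses all 8 arrays, 2 of the 6 were called lower. The count called higher, 0, became 1 (miR-125a-3p) with no scaling, the 75th percentile over all miRNAs, quantile normalization, spike-in scaling, the scanner's total gene signal, the brightest probe, only miRNAs detected on all 8 arrays, a trended and robust variance, and the deposited table. Leaving out 1 array gave 114 to 144 lower and 36 to 64 higher calls among all tested miRNAs, 2 to 3 lower calls among the 6, and 0 to 1 higher, the 1 arising without IRI 3 and without sham 6. The call of miR-99a-5p was lost with no scaling (limma adjusted p = 0.455), spike-in scaling and the replicate block (limma adjusted p = 0.0569), and that of miR-100-5p in 5 of 24 settings (replicate block -0.28, limma adjusted p = 0.110). Deviations of the arrays numbered 1, 2 and 3 in both groups correlated at -0.16, -0.20 and 0.24 over miRNAs. With so few arrays this cannot show whether replicate numbers pair the samples. Same-numbered arrays 1, 2 and 3 also shared slide columns 1, 2 and 3, so number and column cannot be told apart for them.

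Log2 changes reversed with no scaling and with spike-in scaling: the median of tested miRNAs was 0.17 and 0.18, miR-99b-5p 0.16 and 0.18, miR-125a-5p 0.14 and 0.16, miR-125b-5p 0.18 and 0.20, let-7e-5p 0.0152 and 0.0319, and miR-10a-5p 0.0147 and 0.0313. Quantile normalization reversed miR-125b-5p (0.17), miR-10a-5p (0.0643), miR-99a-5p minus miR-100-5p (0.12), miR-99b-5p minus miR-125a-5p (-0.15), miR-100-5p minus let-7a-5p (-0.30) and miR-99b-5p minus let-7e-5p (-0.0141), and raised the pairs of the 6 that pass to 9 of 15, against 0. Normexp and quantile normalization each lowered the let-7 differences that pass to 0 of 7, against 5. No exact permutation p can fall below 0.0286, so for pairs and let-7 differences alike passing depends on how many reach it. With quantile normalization both miR-125b-5p differences, miR-99a-5p minus let-7c-5p and miR-100-5p minus let-7a-5p stood at adjusted p = 0.05 (exact permutation). With normexp both miR-125b-5p differences had adjusted p = 0.1 (exact permutation). Also with normexp, miR-99b-5p stood among the lower calls in place of miR-125a-5p. Normexp also reversed miR-99b-5p minus miR-125a-5p (-0.0211). The mean of log2 probe values reversed miR-99b-5p minus miR-125b-5p (0.000697). Leaving out 1 array gave -0.00329 (without sham 6) to 0.0302 for miR-99b-5p minus miR-125a-5p, -0.0658 (without sham 6) to 0.0350 (without IRI 1) for miR-99b-5p minus miR-125b-5p, and -0.0625 (without sham 6) to 0.0146 (without IRI 1) for miR-125a-5p minus miR-125b-5p.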
